A study of Homo sapiens with 4 samples.

Results

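Aminoacyl-tRNA synthetases are the enzymes that attach each amino acid to its transfer RNA. They were examined here in A549, a widely used human cell line from a lung carcinoma with epithelial character, after knockdown of PSME4, the gene of a proteasome activator. The members are the rows of the count table whose symbol is a capital letter followed by ARS, with an optional 1, 2, A or B at the end, and EPRS1. The rule gave 37 of the 15037 genes in the table, 20 enzymes of the cytosol and 17 of the mitochondrion. GARS1 and KARS1 serve both compartments from 1 gene each and are counted with the cytosolic enzymes. The rule uses symbols and no measured value, but the family was picked with earlier results of these data known. The tested libraries came from A549 cells whose genotype is given as a PSME4 knockdown (PSME4 KD 1 and 2), and the control libraries from A549 cells with a knockdown labelled RFP (control KD 1 and 2). All were poly(A)-selected RNA of cells grown in DMEM. The labels give neither the knockdown reagent nor its duration. They do not say whether libraries were grown as separate cultures, so p-values rest on a spread between libraries that may be technical.

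Each compartment that makes protein needs its own set of charged transfer RNAs. In human cells most amino acids are handled by a pair of nuclear genes, the first (1, or A and B for the subunits) for the cytosol and the second (2) for mitochondria. Several cytosolic synthetases assemble with the scaffold proteins AIMP1, AIMP2 and EEF1E1 into the multisynthetase complex. Uncharged transfer RNA is sensed by the kinase GCN2 (EIF2AK4), and the transcription factor ATF4 that acts downstream is known to drive many cytosolic synthetase genes.

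The libraries held 15208588 and 14845701 counts in PSME4 KD 1 and 2, and 11766371 and 11769392 counts in control KD 1 and 2. PSME4 itself stood at 75.3 and 85.1 CPM (a library-size scaled count, with TMM factors) in the PSME4 KD libraries and at 158 and 180 CPM in the control KD libraries, a log2 fold change of −1.08 (SE 0.20, adjusted p = 0.000855, from the edgeR quasi-likelihood test and Benjamini-Hochberg adjustment). PSME4 lost its call without PSME4 KD 1 (−0.99, adjusted p = 0.144, edgeR), control KD 1 (−1.17, adjusted p = 0.0522) or control KD 2 (−0.97, adjusted p = 0.0599). Every fold change sets 2 PSME4 KD libraries over 2 control KD libraries, and a gene is said to rise or fall where the adjusted p over all 13497 genes tested was under 0.05. Across the whole table, 10.6% of the genes passed, 4.56% higher and 6.0% lower in PSME4 KD cells. The epithelial markers KRT8, KRT18, KRT19, CDH1 and EPCAM were all detected, with summed levels of 4677 and 3701 CPM in PSME4 KD and 4132 and 3365 CPM in control KD libraries. Most of each sum was KRT18, at 4116 and 3088 CPM in PSME4 KD and 3568 and 2818 CPM in control KD. EPCAM was low, at 7.88 and 6.75 CPM in PSME4 KD and 6.14 and 5.41 CPM in control KD. So was KRT19, at 3.15 and 1.70 CPM in PSME4 KD and 2.94 and 3.78 CPM in control KD. Of 4 leukocyte markers CD14 and CD68 were among the rows, with sums of 39.3 and 39.3 CPM in PSME4 KD and 33.8 and 28.4 CPM in control KD libraries. Of 4 fibroblast markers COL1A1 rose and PDGFRA fell, and both missed the threshold after a correction for transcript GC described later (0.48 and −1.20, adjusted p = 0.166 and 0.0733, edgeR), with sums of 18.0 and 20.7 CPM in PSME4 KD and 13.2 and 14 CPM in control KD libraries. Of 4 endothelial markers ESAM was detected, at 9.06 and 12.1 CPM in PSME4 KD and 10.7 and 13.1 CPM in control KD libraries, and the part of any such cells in the results was not tested.

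Most synthetase transcripts did not move past the threshold after PSME4 depletion. All 37 members passed the filter on low counts and could be tested. RARS1, the cytosolic arginyl-tRNA synthetase, fell, none rose, and 36 did not pass, so 2.70% of the members passed beside 10.6% of all genes tested. DESeq2 called 7.51% of all 15037 genes in the table, and limma voom 10.3% of the 13497 genes tested. Each of these also called 1 cytosolic and 0 mitochondrial members. At an unadjusted p under 0.05 by edgeR there were 8 members, 3 with higher and 5 with lower values in PSME4 KD, which is 21.6% of the members beside 26.2% of all genes. PSME4 KD and control KD values were fully separated in 23 of the 37 members (62.2%), 13 higher and 10 lower in PSME4 KD, beside 55.0% of all genes tested. The median log2 fold change was −0.002 for the members and −0.002 for all genes tested, and the median of its absolute value was 0.31 and 0.31.

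**Figure D1:**
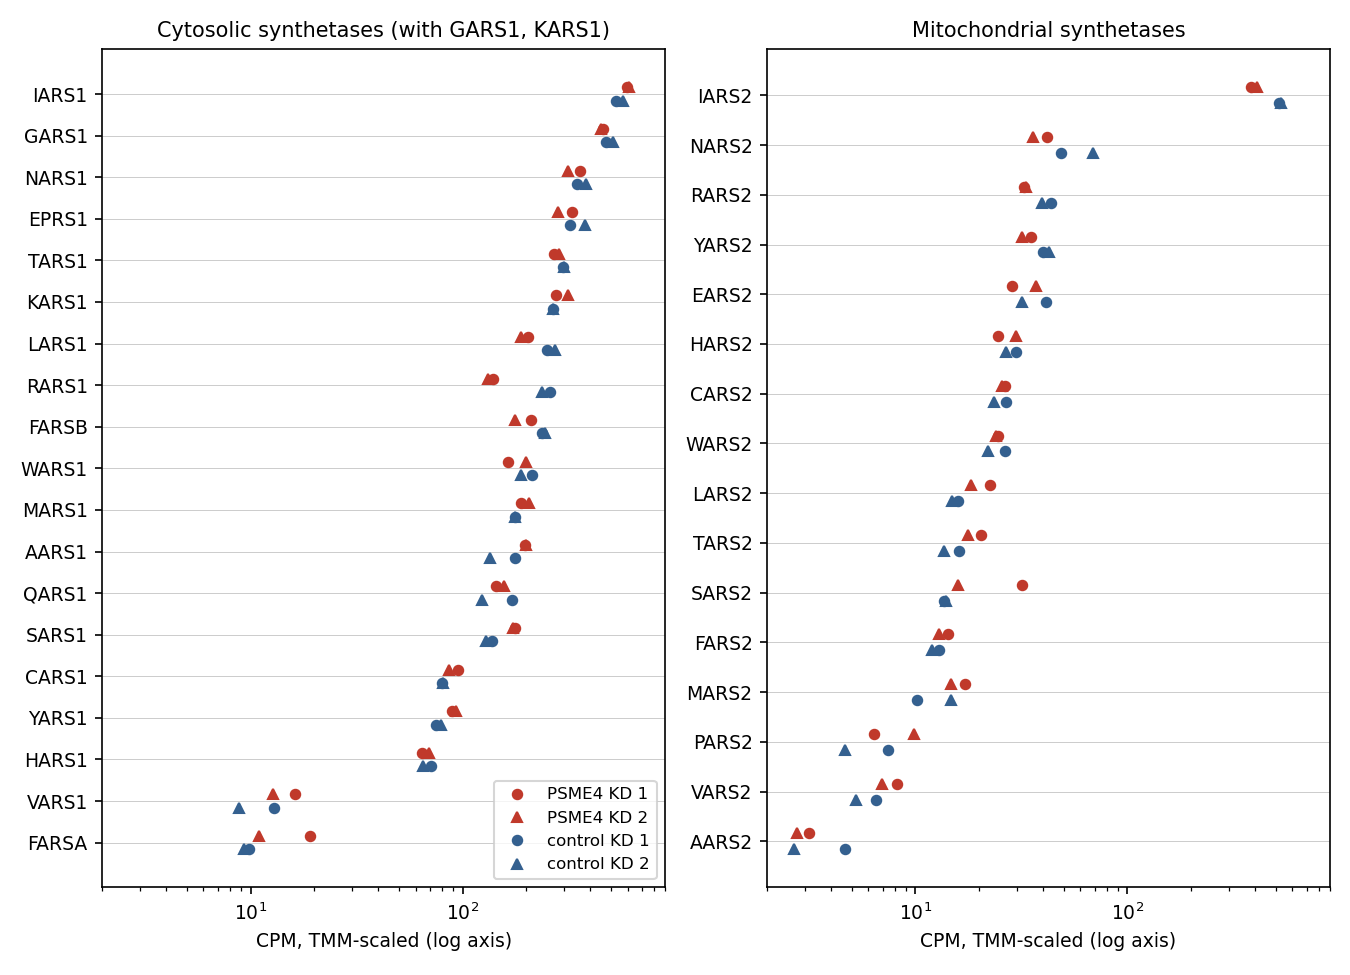
Level of 35 aminoacyl-tRNA synthetase transcripts in CPM on a log axis, for cytosolic enzymes on the left and mitochondrial enzymes on the right. Each point is a library, PSME4 KD in red above control KD in blue, circles for replicate 1 and triangles for replicate 2. RARS1 lies at 140 and 131 CPM in PSME4 KD and at 258 and 237 CPM in control KD, and SARS2 has a PSME4 KD library apart from the rest.

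RARS1 had 140 and 131 CPM in PSME4 KD 1 and 2, against 258 and 237 CPM in control KD 1 and 2. Both PSME4 KD libraries lay below both control KD libraries, and libraries of a group lay close together. The log2 fold change was −0.87 (SE 0.19, 95% interval −1.26 to −0.48, adjusted p = 0.00469, edgeR and Benjamini-Hochberg), from 4130 counts in PSME4 KD and 5742 in control KD. In the authors' deposited table the log2 fold change of RARS1, given there as control KD over PSME4 KD, is 0.86, with an adjusted p of 0.000427 and a further adjusted p, with its method not given in the sources used here, of 0.0909. In edgeR fits without PSME4 KD 1, PSME4 KD 2, control KD 1 or control KD 2 the log2 fold change was −0.91, −0.80, −0.81 and −0.92, and the adjusted p was 0.157, 0.150, 0.0928 and 0.0643, so no fit on 3 libraries called it. RARS1 lies on chromosome 5 at positions 168486471 to 168519301 of GRCh38 and overlaps no other RefSeq gene. Its mitochondrial counterpart RARS2 had 32.6 and 33.1 CPM in PSME4 KD libraries and 43.5 and 39.5 CPM in control KD libraries, also without overlap. Its log2 fold change was −0.34 (SE 0.21, 95% interval −0.76 to 0.08), which did not pass.

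The sequence before the start of RARS1 is shown because it is the member that was called, and that of RARS2 for comparison, with CpG dinucleotides in capitals. The sequences are from RefSeq on GRCh38.p14, 5′ to 3′ on the strand of the gene. The RARS1 stretch is the 250 bases before its start, chr5:168486221-168486470 on the plus strand, with 63.2% GC and 19 CpGs. The RARS2 stretch is the 147 bases between its start and that of its head-to-head neighbour ORC3, chr6:87589988-87590134 on the minus strand, with 70.7% GC and 16 CpGs.
RARS1: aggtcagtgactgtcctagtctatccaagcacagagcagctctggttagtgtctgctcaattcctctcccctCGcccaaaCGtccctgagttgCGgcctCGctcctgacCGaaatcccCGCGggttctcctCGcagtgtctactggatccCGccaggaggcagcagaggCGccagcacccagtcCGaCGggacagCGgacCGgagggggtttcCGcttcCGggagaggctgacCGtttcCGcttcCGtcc
RARS2: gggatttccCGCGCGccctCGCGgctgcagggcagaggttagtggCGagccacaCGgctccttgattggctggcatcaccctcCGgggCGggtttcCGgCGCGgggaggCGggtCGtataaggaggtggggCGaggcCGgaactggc
Their longest coding transcripts have 41.4% GC for RARS1 and 41.9% for RARS2.

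Among the other cytosolic enzymes, the values that came nearest to the threshold went both ways. LARS1, the leucyl enzyme that also senses leucine for mTORC1, had 204 and 188 CPM in PSME4 KD and 249.5 and 274 CPM in control KD, a log2 fold change of −0.42 (SE 0.19). It sits in the multisynthetase complex, and its groups did not overlap. SARS1, the seryl enzyme, had 178 and 173 CPM in PSME4 KD and 137 and 129 CPM in control KD (0.40, SE 0.19). FARSA, the catalytic subunit of the phenylalanyl enzyme, had 19.2 and 11 CPM in PSME4 KD and 9.86 and 9.28 CPM in control KD (0.65, SE 0.27), and the value was 0.20 without PSME4 KD 1. None of these 3 passed, with adjusted p-values between 0.117 and 0.182 by edgeR. FARSB, the partner subunit of FARSA, was at −0.32 (SE 0.19), so the subunits of this enzyme had values of opposite sign.

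The remaining cytosolic enzymes named here had log2 fold changes between −0.19 and 0.41. Those with values above 0 were VARS1 (0.41), AARS1 (0.34), YARS1 (0.24), CARS1 (0.17), MARS1 (0.16), KARS1 (0.14), IARS1 (0.13) and QARS1 (0.02). Those below 0 were EPRS1 (−0.19), the bifunctional glutamyl and prolyl enzyme, WARS1 (−0.14), the tryptophanyl enzyme that interferon-gamma induces, NARS1 (−0.13), GARS1 (−0.11), TARS1 (−0.10) and HARS1 (−0.03). With 1 library left out, VARS1 ranged from 0.17 to 0.71 and AARS1 from 0.17 to 0.55. The 95% interval lay within 0.58 of 0 on both sides, about 1.5-fold, for CARS1, GARS1, HARS1, IARS1, KARS1, MARS1, NARS1, QARS1, TARS1 and WARS1. With 4 mitochondrial enzymes this held for 14 of the 37 members (37.8%), beside 17.5% of all genes tested. Intervals are wider where counts are low, and the share over genes of matched level was not computed. For the other uncalled members the interval reached past that size.

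No mitochondrial synthetase passed by edgeR, DESeq2 or limma voom, and 3 of the 17 had an unadjusted p under 0.05 by edgeR. SARS2, the mitochondrial seryl enzyme, had 31.8 and 15.8 CPM in PSME4 KD and 13.7 and 14 CPM in control KD, a log2 fold change of 0.78 (SE 0.27, adjusted p = 0.0567 by edgeR). PSME4 KD 1 stood apart from the other 3 libraries: without it the value was 0.19, and without PSME4 KD 2 it was 1.23 and passed. NARS2, the asparaginyl enzyme, had 41.7 and 36.0 CPM in PSME4 KD and 48.6 and 68.5 CPM in control KD (−0.59, SE 0.21, adjusted p = 0.0694 by edgeR), and without control KD 2 the value was −0.32. IARS2, the isoleucyl enzyme and the most abundant mitochondrial member, had 381 and 409 CPM in PSME4 KD and 518 and 528 CPM in control KD (−0.40, SE 0.19), without overlap.

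The other mitochondrial enzymes named here had log2 fold changes between −0.34 and 0.43. Values above 0 were found for PARS2 (0.43), LARS2 (0.41), VARS2 (0.37), TARS2 (0.36), MARS2 (0.36), FARS2 (0.13) and CARS2 (0.05). Values below 0 were found for RARS2 (−0.34), AARS2 (−0.31), YARS2 (−0.31), EARS2 (−0.15), HARS2 (−0.06) and WARS2 (−0.0017). Single libraries weighed on PARS2, which ranged from 0.10 to 0.81 with 1 library left out (0.10 without PSME4 KD 2, 0.14 without control KD 2, 0.81 without control KD 1), and on MARS2, which ranged from 0.12 (without control KD 1) to 0.65 (without control KD 2). The low-abundance members carried wide errors, AARS2 with 90 counts in PSME4 KD, 85 in control KD and a 95% interval of −1.05 to 0.42, and VARS2 with 231 counts in PSME4 KD, 136 in control KD and an interval of −0.22 to 0.96.

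**Figure D2:**
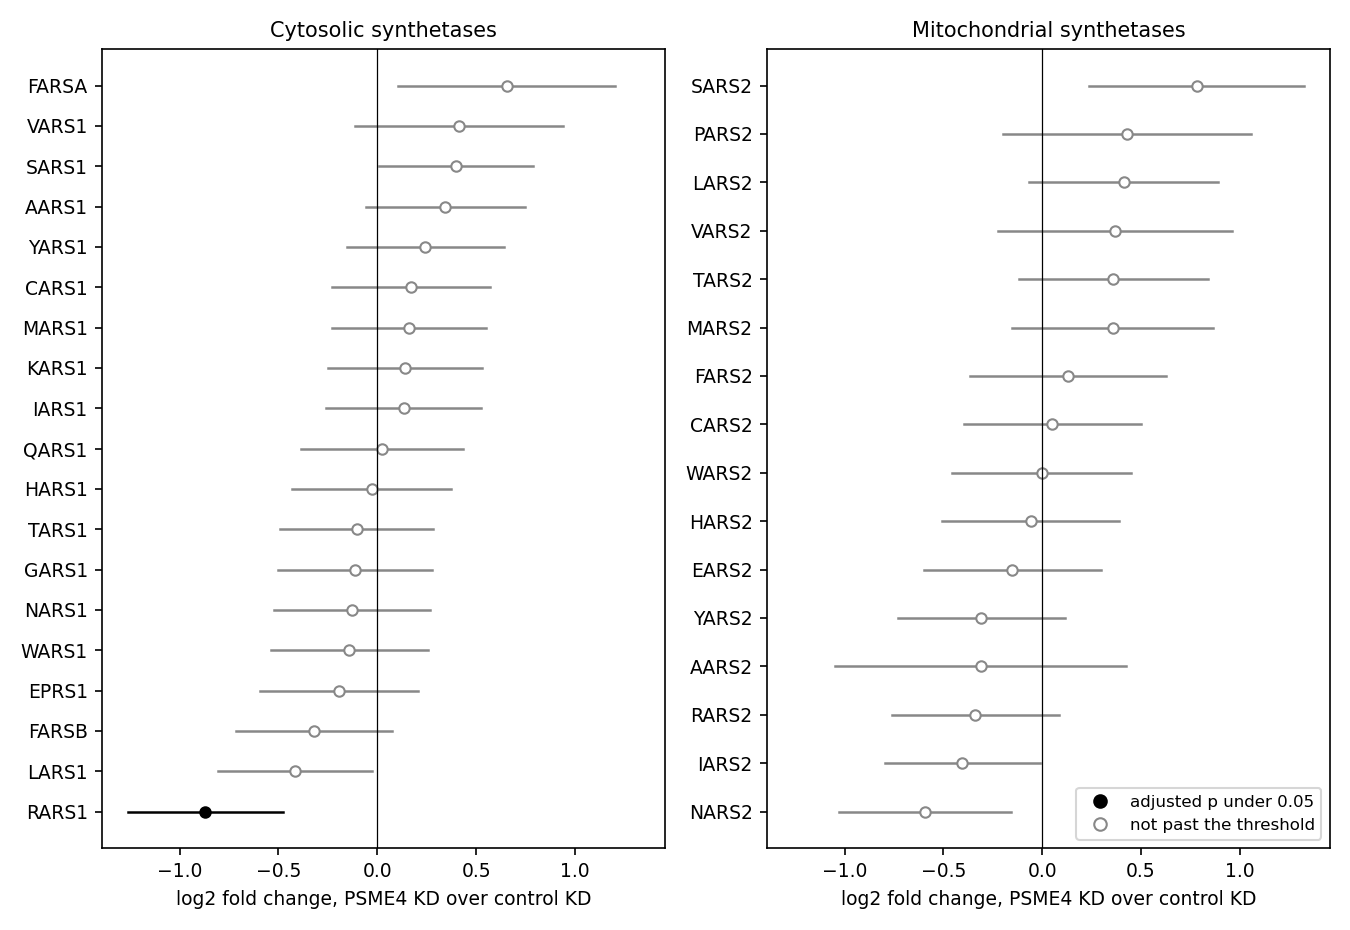
Log2 fold change of 35 synthetase transcripts, PSME4 KD over control KD, with cytosolic enzymes on the left and mitochondrial enzymes on the right. Points are edgeR estimates and bars are 95% intervals, filled black where the adjusted p was under 0.05. RARS1 at −0.87 is the only filled point, and the mitochondrial values run from −0.59 for NARS2 to 0.78 for SARS2.

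Set side by side, both compartments had members on either side of 0, and the difference between them was not tested. The median log2 fold change was −0.003 over the 20 cytosolic members and −0.002 over the 17 mitochondrial members, and −0.002 over all genes tested. Without control KD 1 the medians were 0.058 and 0.14, for the cytosolic and the mitochondrial members. Values were above 0 in 10 cytosolic and 8 mitochondrial members. Library values of the groups did not overlap in 14 cytosolic members, 8 higher and 6 lower, and in 9 mitochondrial members, 5 higher and 4 lower. These are 70.0% and 52.9% of the members, where 55.0% of all genes tested were separated. The absolute value had a median of 0.18 in the cytosolic and 0.34 in the mitochondrial class, which also had the fewer counts. Summed over the class, cytosolic members held 4241 and 4137 CPM in PSME4 KD and 4382 and 4471 CPM in control KD. Mitochondrial members held 917 and 967 CPM in PSME4 KD and 1055 and 1132 CPM in control KD. Both sums were lower in both PSME4 KD libraries, but not in all parts of a class. Cytosolic members under 50% GC held 3150 and 3001 CPM in PSME4 KD and 3329 and 3540 CPM in control KD. Those with 50% GC or more went the other way, with 1091 and 1136 CPM in PSME4 KD and 1053 and 932 CPM in control KD. The part of GC content in the sums was not tested. The mitochondrial sum rests on IARS2. Without it, a choice made after seeing the data, the sums were 535 and 558 CPM in PSME4 KD and 537 and 604 CPM in control KD, and the groups overlapped. As the samples are bulk RNA, fewer cells with a transcript and less of it per cell cannot be told apart.

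On a scale of CPM per kilobase of the longest coding transcript, cytosolic enzymes were the more abundant class. The median over members was 59.9 CPM per kb in PSME4 KD and 67.2 in control KD for the cytosolic enzymes, and 8.62 in PSME4 KD and 8.63 in control KD for the mitochondrial ones. In control KD cells GARS1 was highest, at 187 CPM per kb, and IARS2 stood at 147, IARS1 at 119, NARS1 at 118 and RARS1 at 115. The order from IARS1 to RARS1 does not separate neighbours beyond their spread. In PSME4 KD cells RARS1 was at 63.1 CPM per kb, rank 10 of the 37 where it had been rank 6 in control KD. The lowest members in control KD were AARS2 at 0.951, VARS2 at 1.44, VARS1 at 2.53 and PARS2 at 2.57 CPM per kb. FARSA and FARSB, subunits of the same enzyme, stood at 7.32 and 57.4 CPM per kb in PSME4 KD, and at 4.65 and 71.6 in control KD. The level per kb went down with transcript GC content across the 37 members (Spearman's rho −0.63, members of the same libraries), and FARSA has 60.3% and FARSB 41.6% GC. The part of GC content in these levels was not tested.

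Fold changes went with GC content too. Across the 37 members, which share their libraries, Spearman's rho between transcript GC content and the log2 fold change was 0.70, 0.85 over cytosolic and 0.56 over mitochondrial members. For control KD 2 over control KD 1 it was −0.53, and for PSME4 KD 2 over PSME4 KD 1 it was −0.13. Of the 19 members under 50% GC, 16 had a log2 fold change below 0, and of the 18 members with 50% GC or more, 15 had a value above 0. The medians were −0.13 and 0.29, and over all genes tested with the same division −0.15 and 0.21. Of all genes tested, 35.2% of those under 50% GC and 68.4% of those with 50% or more had a value above 0. All 10 members that lay lower in both PSME4 KD libraries were under 50% GC, and 11 of the 13 that lay higher were at 50% or above. Separated genes were not counted by GC class over all genes. After each library was adjusted for transcript GC, called the GC correction here, the medians of these GC classes were −0.12 and 0.08, and rho over the members was 0.35. It was then 0.55 over cytosolic and 0.18 over mitochondrial members, so a trend with GC content remained among the cytosolic ones.

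With this correction RARS1 had a log2 fold change of −0.69 and passed (adjusted p = 0.0154, edgeR and Benjamini-Hochberg), and it was again the only member called, where 9.21% of all genes were. Other members near the threshold lay closer to 0: SARS2 at 0.52, FARSA at 0.40, NARS2 at −0.47, IARS2 at −0.29, LARS1 at −0.24 and SARS1 at 0.30. The mitochondrial median was −0.07 and the cytosolic median −0.003. The signs of MARS1, QARS1, TARS1, CARS2, FARS2 and WARS2, all of which were uncalled, turned.

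**Figure D3:**
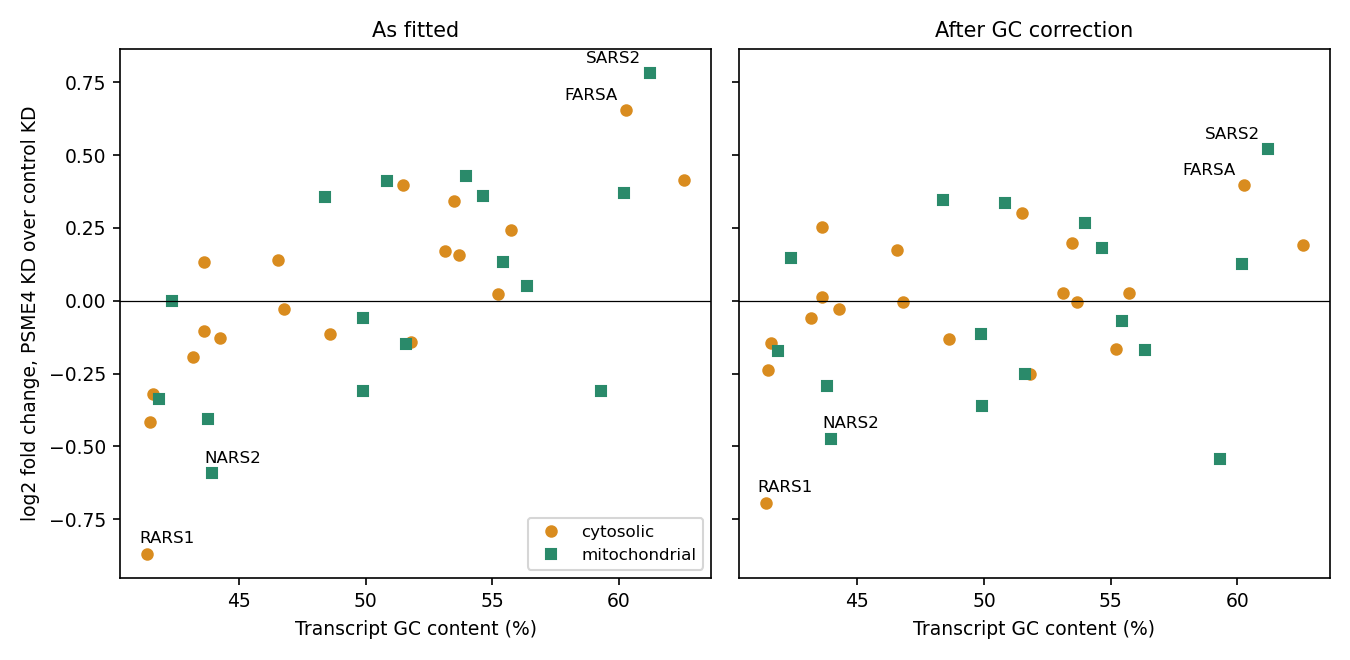
Log2 fold change of 35 synthetase transcripts against the GC content of their longest coding transcript, as fitted on the left and after the GC correction on the right. Circles are cytosolic and squares mitochondrial enzymes. Over all 37 members Spearman's rho is 0.70 on the left and 0.35 on the right, and RARS1 is the lowest point in both panels.

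Enzymes for the same amino acid were compared within each library as the log2 ratio of the cytosolic over the mitochondrial transcript per kb. There were 18 such ratios for the 17 mitochondrial genes, as EPRS1 was set against both EARS2 and PARS2, and FARSA and FARSB against FARS2. With 2 libraries against 2, an exact two-sided permutation test cannot give a p below 0.333, so these ratios are descriptions. The cytosolic transcript was the more abundant in all 4 libraries in 16 of the 18. PSME4 KD lay above control KD without overlap in 5 ratios, below it in 4 and overlapped it in 9, and the median change was −0.10 with a range of −0.82 to 0.62. Of all genes tested, 55.0% were separated as single genes, and the share over ratios of other gene pairs was not computed.

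The arginyl ratio was 3.64 and 3.36 in PSME4 KD libraries and 5.03 and 5.08 in control KD libraries, a change of −0.53 on the log2 scale. The RARS1 and RARS2 transcripts have 41.4% and 41.9% GC. The part of GC content in this ratio and in those that follow was not tested. The isoleucyl ratio IARS1 over IARS2 was 1.2 and 1.15 in PSME4 KD and 0.784 and 0.829 in control KD. On the per-kb scale the more abundant transcript was the cytosolic one in PSME4 KD and the mitochondrial one in control KD libraries. That order depends on the transcript lengths used. In CPM without length, control KD 1 and 2 held 531 and 573 for IARS1, above 518 and 528 for IARS2. These transcripts have 43.6% and 43.8% GC. For asparagine the ratio NARS1 over NARS2 was 6.96 and 7.07 in PSME4 KD and 5.83 and 4.56 in control KD, with 44.3% and 44.0% GC. The tyrosyl ratio YARS1 over YARS2 was 1.67 and 1.91 in PSME4 KD and 1.23 and 1.21 in control KD, with 55.7% and 49.9% GC. The leucyl ratio had the lowest change, with 8.98 and 10.2 in PSME4 KD against 15.6 and 18.3 in control KD, and there LARS1 has 41.5% and LARS2 50.8% GC. The alanyl ratio had the highest change, and there AARS2 had 90 counts in PSME4 KD and 85 in control KD.

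**Figure D4:**
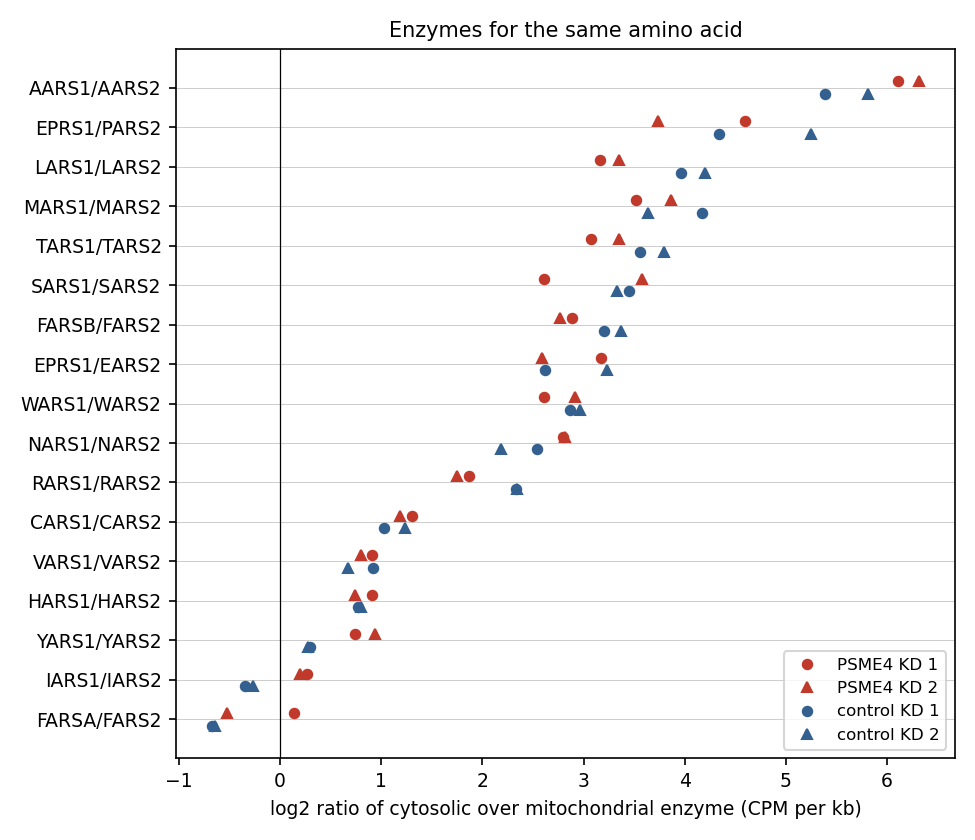
Log2 ratio of the cytosolic over the mitochondrial synthetase for the same amino acid, in CPM per kb, for 17 of the 18 ratios, with a point for each library (PSME4 KD in red above control KD in blue). The vertical line marks equal levels. IARS1/IARS2 lies right of it in both PSME4 KD libraries and left of it in both control KD libraries, and RARS1/RARS2 lies lower in both PSME4 KD libraries.

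HARS1 and HARS2, the histidyl enzymes, are neighbours on chromosome 5 whose starts face each other. The 84 bases between the starts are shown because they are the shared upstream sequence of a cytosolic and a mitochondrial member, chr5:140691371-140691454 on the strand of HARS2, with CpGs in capitals.
HARS1-HARS2: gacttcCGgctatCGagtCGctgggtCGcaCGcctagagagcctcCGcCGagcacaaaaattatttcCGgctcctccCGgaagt
The ratio of HARS1 over HARS2 was 1.88 and 1.67 in PSME4 KD libraries and 1.71 and 1.75 in control KD libraries, so the groups overlapped. HARS1 had 64.1 and 69.4 CPM in PSME4 KD and 71.2 and 65.0 CPM in control KD, and HARS2 24.5 and 29.9 CPM in PSME4 KD against 29.9 and 26.7 CPM in control KD. The longest coding transcripts of the 37 members shared no identical stretch of 50 bases. Other transcripts of these genes and inexact matches were not compared.

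Of the 8 synthetases of the multisynthetase complex, RARS1 fell and 7 did not pass, with a median log2 fold change of −0.09, and 0.07 over the 12 cytosolic members outside it. LARS1 and RARS1 were lower in both PSME4 KD libraries and IARS1, KARS1 and MARS1 were higher. Of the 3 scaffold genes, EEF1E1 fell and the other two did not pass. EEF1E1, also known as AIMP3, had 15.7 and 10.8 CPM in PSME4 KD and 31.2 and 29.3 CPM in control KD, without overlap. Its log2 fold change was −1.19 (SE 0.24, adjusted p = 0.00189 by edgeR), and −0.91 after the GC correction (adjusted p = 0.00923, edgeR). In fits with 1 library left out it ranged from −1.49 to −0.92 with no call. AIMP1, which binds the arginyl enzyme, had 67.3 and 54.3 CPM in PSME4 KD and 75.8 and 101 CPM in control KD (−0.54, SE 0.21, and −0.21 after the GC correction), and AIMP2 was at −0.16 (SE 0.20).

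**Figure D5:**
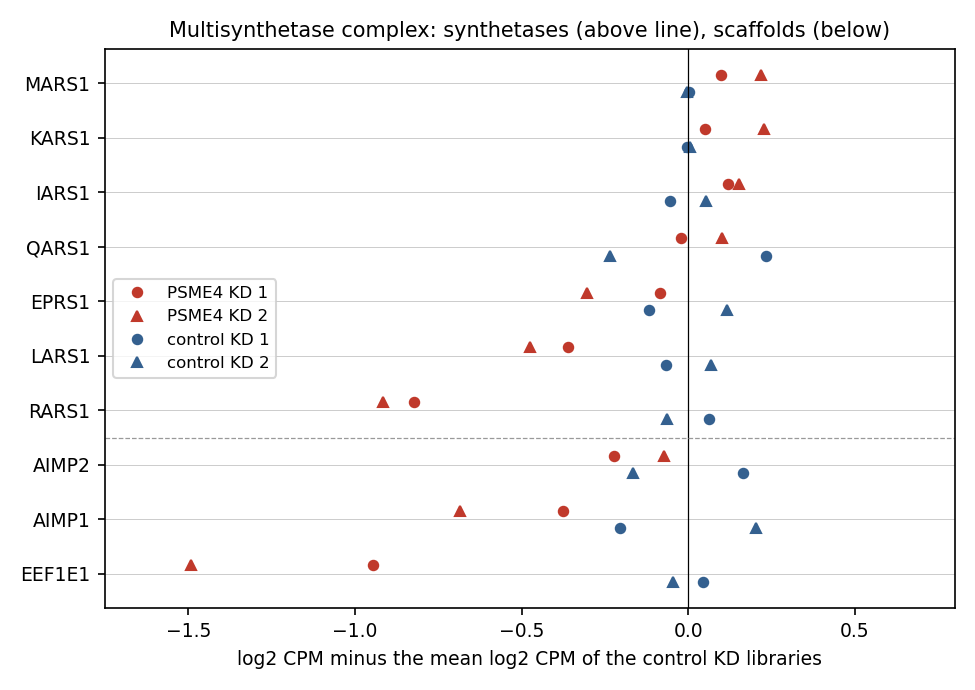
Components of the multisynthetase complex that are named in the text, as log2 CPM minus the mean of the control KD libraries, with synthetases above the dashed line and scaffolds below it. Each point is a library, PSME4 KD in red above control KD in blue. EEF1E1 and RARS1 lie furthest left in both PSME4 KD libraries, while MARS1, KARS1 and IARS1 lie to the right of 0.

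Genes around the synthetases were taken from lists chosen with results of these data known, so their counts are set beside the 10.6% of all genes. Of 13 mitochondrial translation factors and enzymes of transfer RNA amidation and formylation, 1 rose and 12 did not pass, with a median of −0.12. After the GC correction 2 passed, TUFM and MTRF1 (0.69, adjusted p = 0.0398, edgeR), the release factor gene, which is named after its values were seen. TUFM, which brings charged transfer RNA to the mitochondrial ribosome, had 153 and 103 CPM in PSME4 KD and 65.2 and 45.8 CPM in control KD, a log2 fold change of 1.21 (SE 0.22, adjusted p = 0.000901 by edgeR, and 0.98 after the GC correction). It was called without PSME4 KD 2 (1.49) and not without PSME4 KD 1 (0.89), control KD 1 (1.48) or control KD 2 (0.98). Of the 5 cytosolic elongation factor genes 0 passed by edgeR, DESeq2 or limma voom and 1 had an unadjusted p under 0.05, EEF1B2 at 0.48 (SE 0.20). EEF1A2, EEF1D and EEF1G were at 0.43, 0.30 and 0.29, and EEF1A2 at −0.04 without PSME4 KD 1. After the GC correction EEF1A2, EEF1D and EEF1G were at 0.24, 0.07 and 0.10 and EEF1B2 at 0.47, and none of them passed.

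Among 7 tested genes of selenocysteine synthesis and proofreading relatives, TARS3 fell and 6 did not pass. TARS3 is a cytosolic threonyl-tRNA synthetase that the naming rule leaves out. It had 13.9 and 12.9 CPM in PSME4 KD and 26.6 and 20.5 CPM in control KD, a log2 fold change of −0.81 (SE 0.23, adjusted p = 0.0268 by edgeR, and −0.75 after the GC correction), with values from −0.98 to −0.61 and no call in fits with 1 library left out. TARS1, the main cytosolic threonyl enzyme, was at −0.10. Of 12 genes of transfer RNA maturation and export 0 passed by edgeR, DESeq2 or limma voom. By edgeR 4 had an unadjusted p under 0.05, where 26.2% of all genes did. These were ELAC2 (0.61), HSD17B10 (0.56), TRNT1 (−0.53) and TSEN34 (−0.47). After the GC correction TSEN34 was at −0.57 and passed (adjusted p = 0.0428, edgeR). ELAC2, HSD17B10 and TRNT1 were then at 0.39, 0.32 and −0.26 and did not pass.

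Of 8 genes of the integrated stress response, the kinases EIF2AK1 to EIF2AK4 with GCN1, EIF2S1, PPP1R15A and PPP1R15B, of which EIF2AK4 senses uncharged transfer RNA, 0 passed by edgeR and 2 had an unadjusted p under 0.05, EIF2S1 (−0.58) and EIF2AK4 (0.51), where 26.2% of all genes did, and DESeq2 and limma voom each called 1, EIF2S1. After the GC correction EIF2S1 was at −0.34 and EIF2AK4 at 0.52, and neither passed by edgeR. As first fitted, EIF2AK4 was at 0.17 without control KD 1 and at 0.94 without control KD 2. EIF2AK3 and PPP1R15A were at −0.33 and 0.61, PPP1R15A at −0.35 without PSME4 KD 1. Among 29 genes of the ATF4 response 3 rose, 2 fell and 24 did not pass, with a median of 0.10. The glutamine transporter SLC1A5 (0.73, SE 0.20), the glycine transporter SLC6A9 (1.23, SE 0.35) and the stress protein NUPR1 (0.90, SE 0.29) rose, and the ATF4 partner CEBPG (−0.62, SE 0.19) and the secreted hormone STC2 (−0.86, SE 0.23) fell. After the GC correction SLC1A5 (0.49), SLC6A9 (0.97), NUPR1 (0.83) and CEBPG (−0.51) no longer passed, and STC2 (−0.95) did. VLDLR (0.54), CEBPB (−0.63) and TRIB3 (−0.53), named after their values were seen, passed only then. With the correction 1 gene of the list was higher and 3 were lower, where 9.21% of all genes passed. These counts were 4 and 5 with the replicate block added, a setting whose share over all genes was not counted. The replicate block without the GC correction called 11.5% of all genes. DESeq2 called SLC1A5 but not SLC6A9 or NUPR1. None of the 5 was called in an edgeR fit with 1 library left out. ATF4 and its target ASNS are named after their values were seen. ATF4 mRNA was at 0.25 (SE 0.20), and at 0.03 after the GC correction. ASNS had 1.71 and 2.30 CPM in PSME4 KD and 0.432 and 2.41 CPM in control KD. The MARS1 locus overlaps DDIT3, another ATF4 response gene, and strand use in the counting is not given, so reads there may have been shared or dropped. The same limit holds for YARS1, CARS2, EARS2, FARS2 and WARS2, which also overlap a gene of the table.

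Upstream sequences in RefSeq were matched for 30 of the 37 members and searched on both strands, over the 250 bases before the start, for the letters of the ATF4 element (TGATGNAA). It was found in 3 of 30 members, 2 of 16 cytosolic and 1 of 14 mitochondrial, and in 3.19% of 27305 promoters. The matches are shown in capitals with their surroundings, as this is the element of the response described above, at chr16:70289675-70289704, chr9:92293698-92293727 and chr12:32756076-32756105, all genes of the minus strand of GRCh38.p14. In AARS1 and IARS1 the letters stand on the other strand, so their reverse complement is in capitals.
AARS1: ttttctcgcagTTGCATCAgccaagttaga
IARS1: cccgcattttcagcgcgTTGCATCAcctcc
YARS2: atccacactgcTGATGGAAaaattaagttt
The log2 fold changes of these members were 0.34 for AARS1, 0.13 for IARS1 and −0.31 for YARS2, and none passed. The E-box CACGTG was found in 3 of 30 members and in 6.49% of promoters, and the element of NRF1, a regulator of nuclear-encoded mitochondrial genes, in 4 of 30 members, 2 of them mitochondrial, and in 5.53% of promoters. RARS1 held none of the 3 motifs in this window. Such matches are letters in a window and do not show binding.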

How the data were processed

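Per the labels' protocols, libraries of polyadenylated A549 RNA were prepared with a Lexogen SENSE kit. Per the submitters' processing notes, cutadapt, STAR, DESeq2 and the build hg38 were used; versions, settings, read counter, strand use and annotation were all not given in the sources used here. Groups and replicate numbers came from the sample titles. The tests used the deposited raw counts per gene. The authors' deposited normalised signal and regularised log2 values were not tested, and their p-values and log2 fold change are quoted for RARS1 only. No row had a maximum below 6 counts.

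The deposited counts were tested with edgeR 4.0.16 under R 4.3.3 (filterByExpr, TMM, glmQLFit and glmQLFTest, group as the only term, 2 residual degrees of freedom), with Benjamini-Hochberg adjustment over all 13497 genes and a threshold of 0.05. SEs are log2 fold changes over the root of F, and 95% intervals use the degrees of freedom of that test. Alternatives were DESeq2 1.42.0, limma 3.58.1 voom, other scalings and filters, a replicate block, leaving out each library, a threshold of 0.10, and a GC correction: a lowess trend (span 0.4) of log2 deviations in a library against GC of the longest GENCODE coding transcript, as an edgeR offset, for the 97.3% of tested genes with a value. The fits were tested on simulated data. Same-group libraries differed beyond counting noise (chi-square per degree of freedom 17.4 in PSME4 KD and 21.2 in control KD). Members and lists were chosen with earlier results of these data known. Individual results of 2 members are not reported here, though counts and medians include them. The other members are named, and of each list the genes that passed, otherwise the 4 with the smallest p-values. Of the members, 22 overlap another RefSeq gene, 7 of them a gene of the table.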

Additional observations from a re-analysis of the deposited data

How the results depend on the processing

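RARS1 kept its direction in all alternatives and its call in those on all 4 libraries (log2 fold change −0.87 to −0.69). With 1 library left out it ranged from −0.92 to −0.80 without a call, and the number of members that fell was 0 (cytosolic 0). The number that rose was 0 to 1 (mitochondrial 0 to 1), as SARS2 was called without PSME4 KD 2. SARS2 was also called with DESeq2 size factors in edgeR (0.79), library size only (0.82), no filter (0.78) and at least 50 counts in 2 libraries (0.78), giving 1 higher member in each, and NARS2 with the last of these (−0.59), giving 2 lower members, 1 of them mitochondrial. At a threshold of 0.10, 1 member was higher (mitochondrial 1) and 2 lower (mitochondrial 1), 8.11% of the members beside 16.6% of all genes. The cytosolic median was 0.039 with library size only and −0.049 to 0.058 with 1 library left out, and the mitochondrial median −0.035 to 0.14.

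The cause of these differences was not tested. Signs of some uncalled genes turned. Many of these lay near 0, but AARS2 (−0.31), EEF1A2 (0.43) and PPP1R15A (0.61) did not. After the GC correction, alone and with the replicate block, MARS1 was at −0.0037 and −0.0021, QARS1 at −0.17 and −0.16, TARS1 at 0.014 and 0.014, CARS2 at −0.17 and −0.17, FARS2 at −0.071 and −0.072, and WARS2 at 0.15 and 0.16. HARS1 was at 0.013 with library size only. WARS2 was at 0.0043 with DESeq2 size factors, 0.040 with library size only, 0.0058 by DESeq2, 0.0040 by voom, 0.00040 with at least 50 counts and 0.0038 with the replicate block. With 1 library left out the ranges were −0.087 to 0.037 for HARS1, −0.19 to 0.27 for QARS1, −0.65 to 0.15 for AARS2, −0.035 to 0.15 for CARS2, −0.32 to 0.046 for EARS2, −0.18 to 0.080 for HARS2, −0.12 to 0.14 for WARS2, −0.038 to 0.80 for EEF1A2, −0.35 to 1.21 for PPP1R15A and −0.31 to 0.018 for AIMP2. Same-numbered libraries did not deviate together (correlation −0.04 over 8746 genes), so the numbers are not taken as pairs. The replicate block called 1554 genes where the fit without it called 1426, and of the members 1, RARS1 (−0.87), in both. Counts were lowest for AARS2, with 90 in PSME4 KD and 85 in control KD.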
